A study of Mus musculus with 20 samples.

Results

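The Kruppel-like factors are DNA-binding proteins whose transcripts were followed here in mouse eosinophils grown from bone marrow, before and after the alarm cytokine IL-33. The 9 genes described are Klf2, Klf3, Klf4, Klf5, Klf6, Klf7, Klf9, Klf10 and Klf13. They were chosen by gene symbol in the annotation of the array platform, as 9 of the 17771 genes that had a probe set with 1 symbol. Each had 1 such probe set, and all 9 lay among the 11766 genes bright enough to be tested.

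Bone marrow was taken from 5 wild-type mice (Dusp5+/+) and 5 knockout mice (Dusp5-/-). Dusp5 is a nuclear phosphatase that switches off the MAP kinases ERK1 and ERK2. On day 12 of culture the eosinophils were kept in medium alone or received IL-33 at 25 ng/ml for 4 hours, which gave 4 groups of 5 arrays: untreated wild type, untreated knockout, IL-33 wild type and IL-33 knockout. Each array measured the RNA of 1 sample. Which part of Dusp5 was removed, whether all cells of the mice lacked it, and the strain, age and sex of the animals were not given in the sources used here. The labels number the arrays 1 to 5 within each group. Within a genotype the same number was taken to mean the same mouse, which the labels do not state. Mice are thus numbered 1 to 5 within each genotype, and wild-type mouse 2 and knockout mouse 2 are different animals.

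Kruppel-like factors share a cluster of zinc fingers at the end of the protein that binds GC-rich and CACCC elements in promoters, and they differ in the part that recruits cofactors. Klf2, Klf4, Klf5, Klf6 and Klf7 mostly activate their targets. Klf3 is a repressor that binds the corepressor CtBP, and Klf9, Klf10 and Klf13 recruit the Sin3a corepressor. In blood cells the family is known for setting quiescence, lineage choice and inflammatory tone: Klf2 keeps T cells and endothelium quiet, and Klf4 drives monocyte differentiation. Several members are immediate or delayed responders to growth factors, hormones or TGF-beta, so that their messenger RNA can change within hours of a stimulus.

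The RefSeq table of gene starts (build GRCm38.p6) held 7 of the 9 genes, all but Klf5 and Klf10. The 250 bases before the start of Klf2, Klf9 and Klf13 are shown, because these are genes that fell with IL-33 and whose stretches held a motif match. Klf6 fell too, but its stretch held none. Capitals mark motif matches on either strand. The Klf2 stretch is chr8:72318812-72319061 on the plus strand, the Klf9 stretch chr19:23140976-23141225 on the plus strand, and the Klf13 stretch chr7:63938916-63939165 on the minus strand.
Klf2: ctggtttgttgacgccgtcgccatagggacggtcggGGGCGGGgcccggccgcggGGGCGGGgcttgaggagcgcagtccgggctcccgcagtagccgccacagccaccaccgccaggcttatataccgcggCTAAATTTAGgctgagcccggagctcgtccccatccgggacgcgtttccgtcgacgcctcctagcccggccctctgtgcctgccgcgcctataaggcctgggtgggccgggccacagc
Klf9: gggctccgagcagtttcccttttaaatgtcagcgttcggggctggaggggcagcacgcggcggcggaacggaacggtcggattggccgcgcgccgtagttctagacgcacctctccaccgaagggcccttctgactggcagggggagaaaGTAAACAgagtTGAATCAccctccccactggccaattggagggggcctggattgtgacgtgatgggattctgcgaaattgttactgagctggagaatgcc
Klf13: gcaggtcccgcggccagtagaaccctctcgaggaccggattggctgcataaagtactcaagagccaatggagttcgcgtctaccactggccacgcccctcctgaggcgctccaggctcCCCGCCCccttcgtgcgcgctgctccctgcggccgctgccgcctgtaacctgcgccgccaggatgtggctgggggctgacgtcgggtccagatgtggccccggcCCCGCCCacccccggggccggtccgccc

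Klf2 had a match to the MEF2 motif 118 to 109 bases before its start. MEF2 motifs with any bases in the middle occurred in 3.2% of 32851 promoters of that length, and those with only A and T in the middle, as in Klf2, in 0.508%. Klf2 also held 2 GC boxes (GGGCGGG, bound by Kruppel-like and SP factors), as did Klf13, and 23.4% of promoters held at least 1. Klf9 had no GC box. It held a match to the FOXO motif (TGTTTAC, on the other strand) 100 to 94 bases before its start and, 89 to 83 bases before it, a match to the AP-1 motif TGANTCA. These occurred in 3.17% and 6.75% of promoters. The AP-1 pattern allowed any middle base, which in Klf9 was A (TGAATCA), and no stricter AP-1 pattern was searched. Klf3 and Klf4 each held 4 GC boxes, and in Klf4 a pair of them overlapped. The stretches of Klf6 and Klf7 held none of the motifs searched, and no motif was found in all 4 of the falling genes with a sequence. The motifs CRE (TGACGTCA), EGR (GCGTGGGCG), NF-kB and SRE, which occurred in 1.55%, 0.536%, 7.25% and 1.47% of promoters, were found in none of the 7 stretches. A match is a string of letters and not a shown binding site.

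Levels are log2 array values as the authors deposited them. A probe set's brightness depends on its own probes, so levels are compared between samples for 1 gene and never between genes. Array medians lay between 4.25 and 4.32, and replicate arrays of a group correlated at 0.976 to 0.996. No counts lie behind array values, and the number of arrays limits their precision. The Dusp5 signal was at most 5.15 on knockout arrays and at least 7.85 on wild-type arrays, so the signal matched the label of each array. The probe set may lie outside the removed part, in which case it does not check the deletion. The eosinophil markers with a probe set, 7 of the 9 listed, were bright on all arrays, with a summed level of 14.9 to 15.4 on the log2 scale. The summed levels were 13.6 to 14.5 for the 9 neutrophil markers, 13.2 to 13.6 for 5 mast cell and basophil markers, 11.3 to 11.9 for 5 monocyte and macrophage markers and 6.65 to 9.48 for 5 lymphocyte markers. The 3 erythroid and megakaryocyte markers summed to 11.7 to 12.2, with 1 of them dim on all arrays. In a bulk sample, fewer cells of a type and less RNA per cell cannot be told apart.

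The first comparison asked how 4 hours of IL-33 changed these genes in wild-type eosinophils. Of the 9 genes, 5 fell and 0 rose. The 5 were Klf2, Klf6, Klf9, Klf10 and Klf13. Klf2 fell the most, to a level 1.96-fold lower. Klf4, Klf5 and Klf7 stayed within their error, and Klf3 missed the threshold but passed it when the arrays of a mouse were compared with each other. The background for these calls is wide, since 26.7% of all tested genes fell and 16.1% rose in this comparison at an adjusted p under 0.05 (limma, Benjamini-Hochberg over all tested genes). The median change of the 9 genes was -0.52 on the log2 scale, against -0.05 over all tested genes.

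Among the activators, Klf2, which restrains activation in T cells and endothelium, moved furthest. Its untreated wild-type levels were 8.89, 9.40, 8.59, 9.39 and 8.88 in mice 1 to 5. After IL-33 they were 8.12, 8.33, 7.77, 8.26 and 7.85. Every IL-33 array thus lay below every untreated array. The mean went from 9.03 ± 0.36 to 8.06 ± 0.25 (SD, n = 5 each), a change of -0.97 ± 0.15 (SE) with an adjusted p of 3.1e-05. The drop was seen in 5 of 5 mice and ranged from -1.14 to -0.77.

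Klf6, a widely expressed activator that is induced in many cells by injury and growth factors, fell by less. It stood at 9.86, 9.98, 9.29, 9.36 and 9.50 without IL-33. With IL-33 it stood at 9.16, 9.39, 8.44, 8.87 and 8.79. The groups overlapped, because the treated cells of mouse 2 were brighter than the untreated cells of mice 3 and 4, yet each mouse fell, by -0.85 to -0.49. The mean change was -0.66 ± 0.16 with an adjusted p of 0.00168.

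Klf4, Klf5 and Klf7 were not called. Klf4, the monocyte and barrier factor, read 6.16, 6.11, 6.48, 5.88 and 6.0 untreated and 6.52, 5.90, 6.60, 6.10 and 6.26 with IL-33. The change of 0.15 ± 0.16 had a 95% interval from -0.18 to 0.49, and 4 of 5 mice were higher. Klf5, a growth-promoting factor of epithelia, read 6.0, 5.61, 5.47, 5.52 and 5.88 untreated and 5.37, 5.96, 4.90, 5.73 and 5.65 with IL-33. It was lower in 3 mice and higher in 2, with a mean change of -0.18 ± 0.16 (95% interval -0.51 to 0.15).

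For Klf7, best known from neurons, the untreated levels of 8.15, 8.59, 7.81, 7.92 and 8.12 and the treated levels of 8.45, 8.64, 7.73, 8.31 and 8.02 covered the same range. Its change was 0.11 ± 0.17, with an interval from -0.24 to 0.46. A change of the size seen in Klf2 lies outside the intervals of Klf4, Klf5 and Klf7 in wild-type cells.

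Of the repressors, Klf10, an early gene of the TGF-beta response, fell by 0.72 ± 0.15 on the log2 scale (adjusted p = 0.000472). Its levels were 9.17, 9.73, 9.0, 9.31 and 9.16 in medium. They were 8.46, 8.81, 8.47, 8.57 and 8.44 with IL-33, so the groups did not overlap. Klf9, a factor induced by glucocorticoids and thyroid hormone, changed by -0.64 ± 0.11 (adjusted p = 8.33e-05). It read 8.29, 8.55, 8.07, 8.13 and 8.12 in medium and 7.88, 7.71, 7.40, 7.57 and 7.40 with IL-33, again without overlap.

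Klf13, which in T cells activates the chemokine gene Ccl5, fell by 0.52 ± 0.13 (adjusted p = 0.00347). Its untreated levels were 10.03, 10.20, 9.84, 9.80 and 9.91. Its treated levels were 9.61, 9.80, 8.96, 9.44 and 9.39, where mouse 2 just reached the lowest untreated array. Mouse 3 changed the most, by -0.87. Over the members, 3 had groups that did not overlap, all lower with IL-33, and 17.6% of all tested genes were lower without overlap.

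Klf3, the CtBP-binding repressor, read 9.45, 9.86, 9.15, 9.41 and 9.36 untreated and 9.08, 9.41, 9.12, 9.17 and 8.95 with IL-33. All 5 mice were lower, but the change in mouse 3 was only -0.04. The mean change of -0.30 ± 0.13 missed the threshold (adjusted p = 0.0752). With the replicate number as a block, which compares arrays of the same mouse, the adjusted p was 0.00109 with fixed effects and 0.00601 with a random effect. Of 10 fits that left out an array, 2 called Klf3. These were the fits without untreated mouse 3 (-0.37, adjusted p = 0.0341) and without treated mouse 2 (-0.37, adjusted p = 0.04). Over the 10 fits the change ran from -0.37 to -0.20, with an adjusted p of up to 0.217. With the fixed block 6 members fell and 0 rose, while 37% of all tested genes fell and 20.8% rose.

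**Figure D1:**
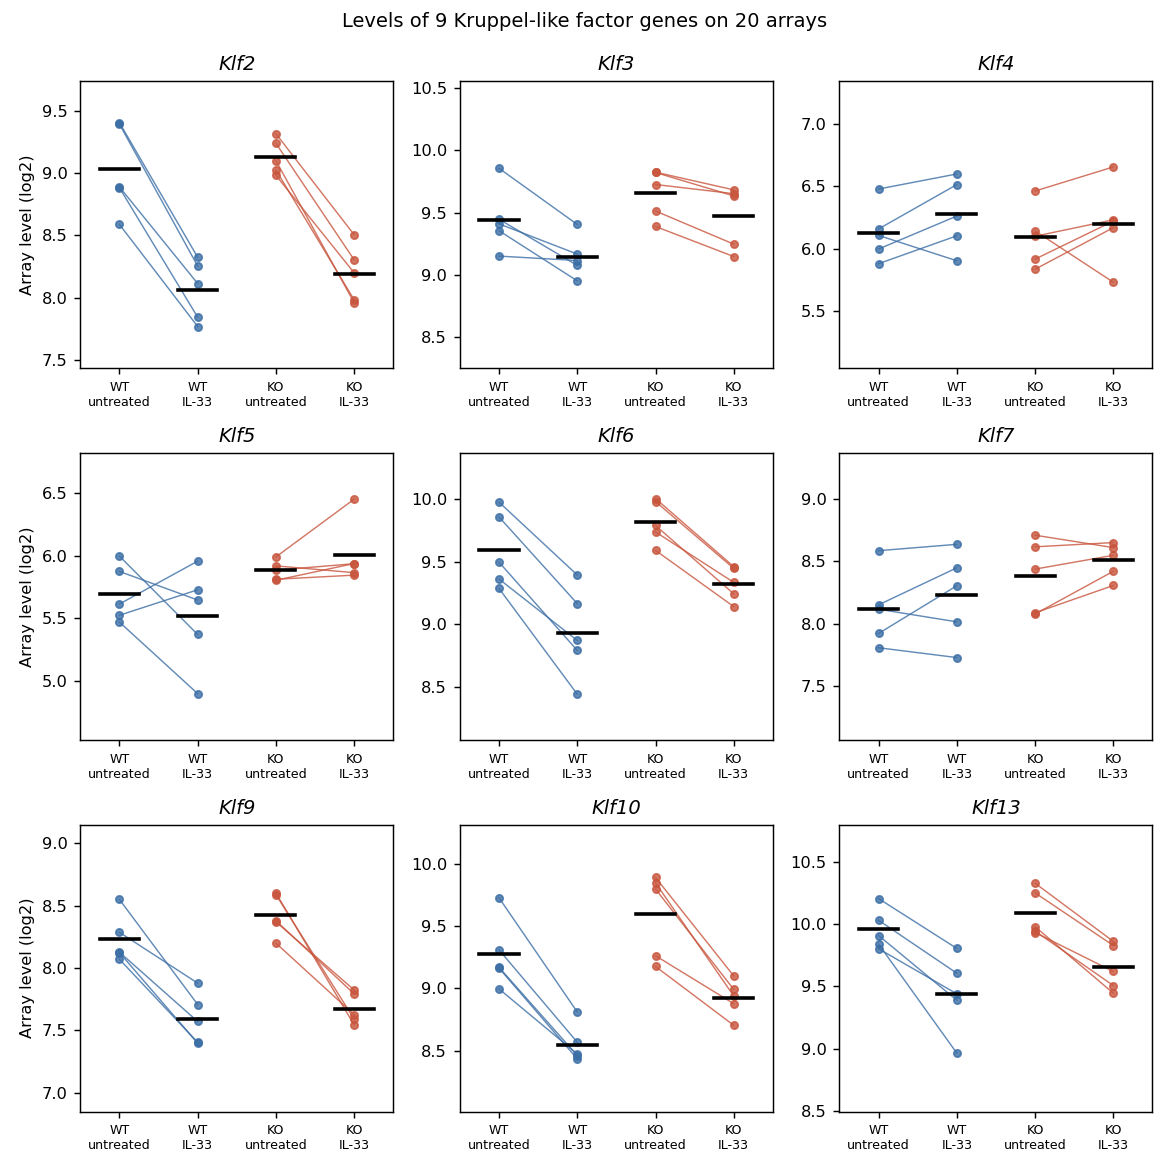
Log2 array level of each of the 9 genes on the 20 arrays, with 1 point per array in the 4 groups of genotype (WT, wild type; KO, Dusp5 knockout) and treatment; lines join the arrays of 1 mouse, black bars are group means, and every panel spans the same number of log2 units. The lines of Klf2, Klf6, Klf9, Klf10 and Klf13 slope down in all 5 mice of each genotype, while those of Klf4, Klf5 and Klf7 go both ways.

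The same question in knockout cells gave the same 5 genes. Klf2, Klf6, Klf9, Klf10 and Klf13 fell in cells without Dusp5, and 0 of the 9 rose. There too the fall reached all 5 mice for each of them. Here 33.2% of all tested genes fell and 18.9% rose. The median change of the 9 was -0.43, against -0.08 over all tested genes.

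In knockout cells Klf2 stood at 9.02, 9.24, 9.10, 9.32 and 8.98 untreated, with an SD of 0.14 where wild-type cells had 0.36. After IL-33 it stood at 7.98, 8.30, 7.96, 8.51 and 8.20. The change was -0.94 ± 0.15 (adjusted p = 2.9e-05), a level 1.92-fold lower. No treated array reached the lowest untreated one. Klf6 went from 9.59, 9.98, 9.79, 10.01 and 9.74 to 9.14, 9.45, 9.24, 9.46 and 9.33, without overlap. Its change was -0.50 ± 0.16 (adjusted p = 0.011), and the mice lay close together, between -0.55 and -0.40.

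Klf9 changed by -0.75 ± 0.11 (adjusted p = 8.75e-06). The untreated levels of 8.20, 8.60, 8.38, 8.59 and 8.37 gave way to 7.63, 7.54, 7.79, 7.59 and 7.82. Knockout mice 2 and 4, with the brightest untreated arrays, changed the most, by -1.06 and -1.00, and ended with the dimmest treated arrays. Klf10 went from 9.18, 9.80, 9.26, 9.85 and 9.89 to 8.70, 8.99, 8.88, 8.94 and 9.10, a change of -0.67 ± 0.15 (adjusted p = 0.000671). Its untreated knockout arrays split into mice 1 and 3, at 9.18 and 9.26, and the other mice, at 9.80 to 9.89.

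Klf13 read 9.94, 10.25, 9.98, 10.33 and 9.93 untreated and 9.51, 9.83, 9.45, 9.86 and 9.62 with IL-33, a change of -0.43 ± 0.13 (adjusted p = 0.00926). All 5 falling genes were without overlap in knockout cells, where 25% of all tested genes were lower without overlap. Klf3 was lower in 5 of 5 mice, from 9.39, 9.82, 9.51, 9.82 and 9.73 to 9.15, 9.63, 9.25, 9.68 and 9.65, but its change of -0.18 ± 0.13 was not called (adjusted p = 0.258). With the fixed block its adjusted p was 0.0197, and with the random block it was 0.0727. The fixed block thus gave 6 falling members and 0 rising ones, where 42% of all tested genes fell and 23.5% rose.

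Klf4 in knockout cells read 5.84, 5.92, 6.14, 6.10 and 6.46 untreated and 6.17, 6.22, 5.73, 6.23 and 6.66 with IL-33. It was higher in 4 of 5 mice and lower in mouse 3, and the mean change of 0.11 ± 0.16 was not called. Klf7 read 8.08, 8.62, 8.09, 8.71 and 8.44 untreated and 8.42, 8.65, 8.31, 8.61 and 8.55 with IL-33. Its change of 0.12 ± 0.17 had an interval from -0.23 to 0.47. Klf5 read 5.81, 5.92, 5.89, 5.99 and 5.80 untreated and 5.85, 5.87, 5.94, 6.45 and 5.94 with IL-33, where mouse 4 stood apart. Its change was 0.13 ± 0.16 with that mouse and 0.01 without its treated array.

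Markers of the cells moved with IL-33 as well. Of the 7 eosinophil markers, 3 fell in each genotype, namely the lectin Siglecf, the interleukin-5 receptor chain Il5ra and the lipoxygenase Alox15. The granule protein genes Epx and Prg2 changed by -0.05 and 0.00 in wild-type cells and by -0.08 and 0.02 in knockout cells. Prg3, another granule protein gene of the list, was not called in either genotype. All 7 eosinophil markers had a negative change in wild-type cells (median -0.30), and 6 did in knockout cells (median -0.47). In wild-type cells 1 monocyte and macrophage marker rose and 2 of 5 fell, 1 mast cell and basophil marker rose and 2 of 5 fell, 1 of 4 tested lymphocyte markers rose, and 0 of 9 neutrophil and 0 of 2 erythroid and megakaryocyte markers were called. In knockout cells 1 monocyte and macrophage marker rose and 3 fell, 1 mast cell and basophil marker rose and 2 fell, and 0 of 9 neutrophil, 0 of 4 lymphocyte and 0 of 2 erythroid and megakaryocyte markers were called. The fixed block, which compares arrays of the same mouse, called more of them. With it the eosinophil chemokine receptor Ccr3 fell too, which made 4 eosinophil markers in each genotype, and 4 neutrophil markers fell in wild-type cells and 7 fell and 1 rose in knockout cells. It also gave 4 falling and 1 rising monocyte and macrophage markers and 2 falling lymphocyte markers in each genotype. Of the erythroid and megakaryocyte markers 1 fell in wild-type and 2 in knockout cells with the block, and 3 and 2 mast cell and basophil markers did. These counts stand against the share of all tested genes, where 26.7% fell and 16.1% rose in wild-type and 33.2% and 18.9% in knockout cells. With the fixed block 37% fell and 20.8% rose in wild-type cells, and 42% and 23.5% in knockout cells. The part of the marker shifts in the changes of the Kruppel-like factors was not tested.

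**Figure D2:**
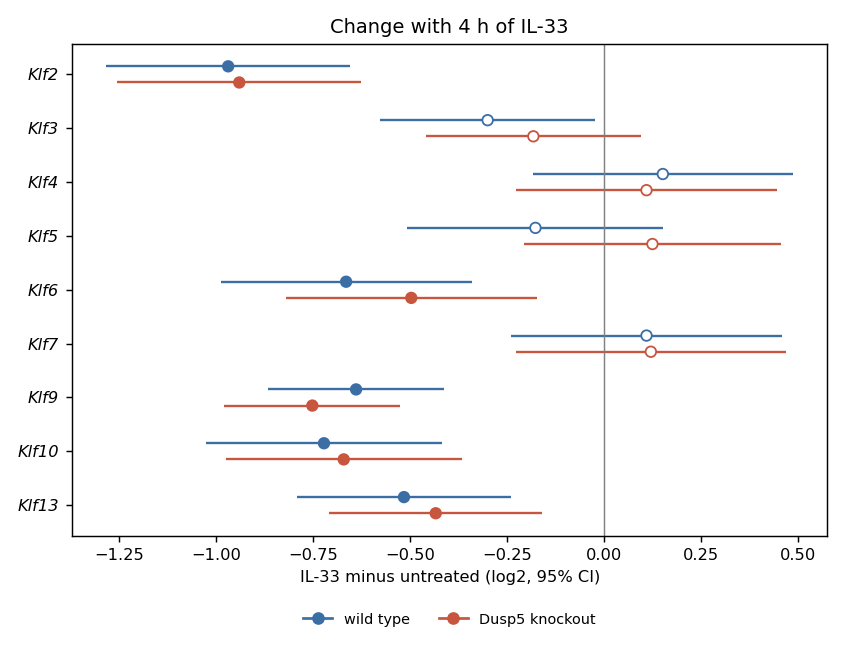
Change of each gene with IL-33 (IL-33 minus untreated, log2) in cells of each genotype, with the 95% interval of the limma fit from 5 arrays a group; filled points were called at an adjusted p under 0.05 and open points were not. The 5 filled genes lie between -0.97 (Klf2, wild type) and -0.43 (Klf13, knockout), and the intervals of Klf4, Klf5 and Klf7 cross 0.

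Whether Dusp5 altered these genes at rest was asked next. No member was called between untreated knockout and untreated wild-type cells. Klf10 had the largest difference, 0.32 ± 0.15 higher in knockout cells (95% interval 0.02 to 0.63, adjusted p = 0.383). Of all tested genes 0.0255% were called, 3 genes in all, so that few genes of any kind passed here. In all, 8 of the 9 members had a higher mean in knockout cells and Klf4 a lower one (-0.03), while 5736 of the 11766 tested genes had a higher mean. The members varied together among mice, as described below, so these 8 are not separate observations. The median difference of the members was 0.20, against -0.005 over all tested genes.

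Klf7 was higher in the untreated knockout by 0.27 ± 0.17, Klf6 by 0.23 ± 0.16, Klf3 by 0.21 ± 0.13, Klf9 by 0.20 ± 0.11 and Klf5 by 0.19 ± 0.16. Klf13 was higher by 0.13 ± 0.13 and Klf2 by 0.10 ± 0.15. The adjusted p-values of the 9 ran from 0.383 to 0.941, and 1 of them, that of Klf10, was under 0.05 before adjustment. The genotypes overlapped for each member, and 1.1% of all tested genes had no overlap. Without wild-type mouse 2, the brightest array for most of these genes, Klf10 differed by 0.43 (adjusted p = 0.0972).

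After IL-33, again, no member was called between genotypes, where 2.21% of all tested genes were. Klf5 differed the most, 0.49 ± 0.16 higher in knockout cells (adjusted p = 0.0862). Klf6 was higher by 0.39 ± 0.16 (adjusted p = 0.135), Klf10 by 0.37 ± 0.15 (adjusted p = 0.133) and Klf3 by 0.33 ± 0.13 (adjusted p = 0.142). These 4 were under 0.05 before adjustment. The calls over all genes depended on the scaling, since 55.4% of them were lower in knockout cells with the deposited values and 32.3% after quantile normalization.

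For Klf5 the treated wild-type arrays spanned 4.90 to 5.96 and the treated knockout arrays 5.85 to 6.45, with only wild-type mouse 2 inside the knockout range. Without that array Klf5 differed by 0.60 (adjusted p = 0.0202) and Klf6 by 0.51 (adjusted p = 0.0306), and both were then called. That fit called 1659 of all tested genes, against 260 with all arrays, so the rise in calls was not particular to these members. Without knockout mouse 4, the highest Klf5 array, the Klf5 difference was 0.38 (adjusted p = 0.203). Klf7 differed by 0.28 ± 0.17, Klf13 by 0.21 ± 0.13, Klf2 by 0.13 ± 0.15 and Klf9 by 0.08 ± 0.11. Klf4 differed by -0.07 ± 0.16, a sign that turned to 0.003 after quantile normalization. Here too the genotypes overlapped for each member, where 3.32% of all tested genes had no overlap. The median member difference was 0.28, against -0.03 over all tested genes. The arrays came from the same mice as the untreated ones, so the higher means of 8 members in each treatment are not separate observations.

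**Figure D3:**
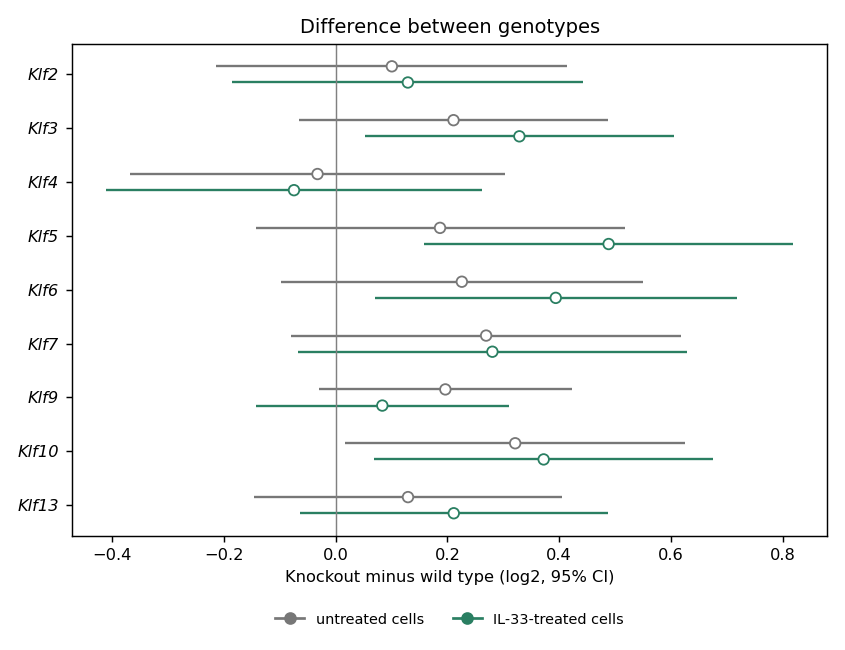
Difference between genotypes (knockout minus wild type, log2) for each gene in untreated and IL-33-treated cells, with the 95% interval of the limma fit from 5 arrays a group; all points are open because none was called. Points other than those of Klf4 lie above 0, up to 0.49 for Klf5 after IL-33.

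A direct test asked whether the IL-33 response itself differed between genotypes. The difference in response, knockout minus wild type, ran from -0.11 ± 0.15 for Klf9 to 0.30 ± 0.22 for Klf5, with an adjusted p of 0.999 for each member. No gene of the 11766 was called (0%), while 568 were under 0.05 before adjustment, none of them a member. With the random block 26 genes were called (0.221%), also none a member, and with the fixed block 0, with 1633 under 0.05 before adjustment. For Klf2 the 95% interval of the difference ran from -0.42 to 0.47, and for Klf6 from -0.29 to 0.63, without a block. The fixed block, which compares arrays of the same mouse, gave narrower intervals. They were -0.18 to 0.24 for Klf2 and -0.0005 to 0.34 for Klf6 (limma, adjusted p = 0.924 and 0.361).

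An exact two-sided permutation of the genotype labels over the 10 mice, which can give no p below 0.00794, was run on the change of each mouse. These p-values are unadjusted over the 9 tests, and the smallest possible one times 9 is 0.0714, so that the test cannot call a single member after such a correction. Klf6 had the smallest p, 0.0556. Its change was -0.69, -0.58, -0.85, -0.49 and -0.71 in wild-type mice 1 to 5 and -0.45, -0.54, -0.55, -0.55 and -0.40 in knockout mice. Of the wild-type mice, mouse 4 lay within the knockout range and the other 4 below it. Without that mouse the exact p of Klf6 was 0.00794, the smallest that the remaining mice could give as well. Leaving out the only overlapping wild-type mouse fixed that p in advance, so it adds nothing on a difference in response. After quantile normalization of all arrays, with all 10 mice, the exact p of Klf6 was 0.0317. For Klf3 the exact p was 0.198. Without wild-type mouse 3, the wild-type mouse that changed the least (-0.04), it was 0.0317. That mouse was the only wild-type mouse that changed less than every knockout mouse. Leaving it out moves the genotypes apart, so this p adds nothing on a difference in response either. The exact p of the other 7 genes lay between 0.206 and 0.921.

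The members varied together among mice. Wild-type mouse 2 had the highest array of its group for 7 of the 9 genes in each treatment: Klf2, Klf3, Klf6, Klf7, Klf10 and Klf13 in both, Klf9 untreated and Klf5 after IL-33. Wild-type mouse 3 had the lowest array for 7 genes untreated and for 5 after IL-33, yet the highest Klf4 in both. Averaged over the 9 genes, mouse 2 lay 0.28 above its group mean untreated and 0.24 above it after IL-33, and mouse 3 lay at -0.20 and -0.26. Among knockout mice, mouse 4 was highest for 6 genes untreated and 5 treated, and mouse 1 lowest for 6 and 4.

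The same mice stood out in cell markers. Wild-type mouse 3 had the highest summed lymphocyte markers, 9.48 untreated against a group median of 7.60 and 9.0 treated against 7.23, and the highest neutrophil markers in both treatments (14.5 and 14.5, against medians of 14.0 and 13.9). By summed level, wild-type mouse 2 had the lowest of both lists, the highest monocyte and macrophage markers (11.8 and 11.9) and the highest mast cell and basophil markers (13.6 and 13.5). The eosinophil markers also differed between these mice, with the lowest sum in mouse 2 (15.04 untreated and 14.92 treated) and the highest in mouse 3 (15.44 and 15.35). A sum follows the brightest markers, and the mean log2 level ranked the wild-type mice otherwise. By that mean, eosinophil markers were lowest in mouse 1 (11.31 and 10.94) and highest in mouse 5 (11.43 and 11.12). Mast cell and basophil markers were then highest in mouse 3 (10.06 and 10.03), and neutrophil markers lowest in mouse 4 (8.90 and 8.72). Knockout mouse 5 had the highest neutrophil markers of its genotype (14.5 and 14.2) and the highest Klf4 in both treatments. Knockout mouse 1 had the lowest neutrophil markers in both, but the lowest Klf4 only without IL-33, since mouse 3 was lowest with it (5.73). The part of these cells in the differences among mice was not tested. The falls of Klf2, Klf6, Klf9, Klf10 and Klf13 with IL-33 were called in each genotype whichever of the 10 arrays compared was left out.

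**Figure D4:**
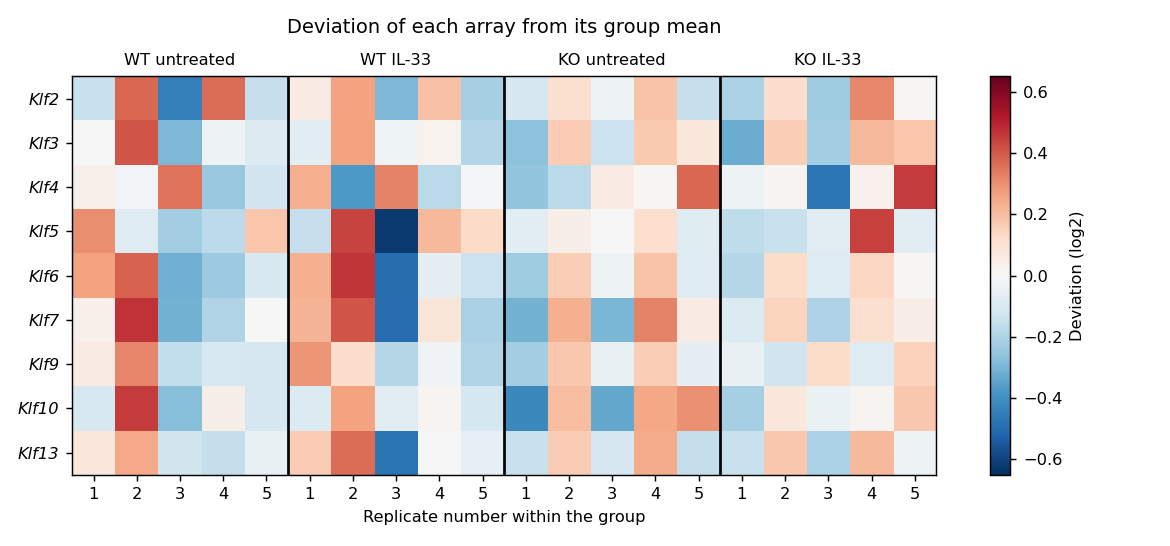
Deviation of each array from the mean of its own group (log2, colour scale) for the 9 genes, with the arrays of the 4 groups side by side and numbered by mouse. Wild-type mouse 2 is above its group mean for 7 genes untreated and 8 after IL-33, wild-type mouse 3 for 1 gene, Klf4, in each treatment, and no knockout mouse shows a deviation of Klf2 as large as that of untreated wild-type mouse 3.

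The genes most like each falling member over the 20 arrays were sought by the root mean square difference of log2 values after each gene's own mean was removed. This is a description across arrays that share the IL-33 contrast. For Klf2, whose own root mean square was 0.53, the closest were Rfc2, a subunit of the replication clamp loader, at 0.120, then the Ras inhibitor Rasa3 at 0.136 and the activin antagonist Fstl3 at 0.142. For Klf13 they were the calcium sensor Stim1 at 0.0953, the lipid phosphatase Synj1 at 0.106 and Zfand6 at 0.110. For Klf6 they were the receptor gene P2ry10b at 0.114, Glcci1 at 0.120 and then Klf13 itself at 0.130. For Klf9 they were Ydjc at 0.119, the bZIP factor Cebpg at 0.128 and Washc2 at 0.137. For Klf10 they were the RNA sensor Tlr13 at 0.124, the MAP kinase phosphatase Dusp1 at 0.129 and the lipid hydroxylase Cyp4f18 at 0.130. The median over all tested genes was 0.38 to 0.56 for these members.

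The rest of the family did not share 1 direction. Of 17 other Kruppel-like and SP genes, 9 were tested, 5 were too dim (Klf12, Klf15, Klf17, Sp5 and Sp8) and 3 had no probe set of their own here (Klf8, Sp2 and Sp9). In wild-type cells 4 rose and 1 fell, and in knockout cells 4 rose and 2 fell, where 16.1% and 18.9% of all tested genes rose and 26.7% and 33.2% fell. With the fixed block 4 rose and 3 fell in each genotype. The block gave 20.8% and 23.5% of all tested genes as rising and 37% and 42% as falling. The median change of the 9 family genes tested was 0.18 and 0.19.

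Klf11, the closest relative of Klf10, fell in both genotypes, by a change of -0.52 ± 0.13 in wild-type cells (adjusted p = 0.00226) and of -0.94 ± 0.13 in knockout cells (adjusted p = 3.69e-06). The difference between these responses was -0.42 ± 0.18 (adjusted p = 0.953). Klf16 rose by 0.46 ± 0.08 and 0.52 ± 0.08, and Sp1, a general activator at GC boxes, by 0.36 ± 0.09 and 0.47 ± 0.09. Klf1, the erythroid factor, changed by -0.20 ± 0.15 in wild-type cells (adjusted p = 0.291, or 0.0181 with the fixed and 0.0824 with the random block) and by -0.37 ± 0.15 in knockout cells (adjusted p = 0.039). The last call was lost in 6 of 10 fits that left out an array and after quantile normalization (adjusted p = 0.0649).

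Of the 11 cofactor genes 9 were tested. In wild-type cells 1 rose and 3 fell, and 3 rose and 3 fell with the fixed block; in knockout cells 1 rose and 2 fell, and 2 and 2 with the block. These shares are read against the whole, where 16.1% of tested genes rose and 26.7% fell in wild-type and 18.9% and 33.2% in knockout cells, or 20.8% and 37% and 23.5% and 42% with the fixed block. Sin3a, the corepressor of Klf9, Klf10 and Klf13, fell, with changes of -0.33 ± 0.09 and -0.47 ± 0.09 (adjusted p = 0.00568 and 0.000204). Ctbp1, the corepressor of Klf3, fell, with changes of -0.23 ± 0.06 and -0.25 ± 0.06 (adjusted p = 0.00564 and 0.00214). Fhl3, a partner of Klf3, changed by 0.24 ± 0.09 in wild-type cells (adjusted p = 0.0357, but 0.0512 with no filter on dim genes) and by 0.08 ± 0.09 in knockout cells. Hdac1, a histone deacetylase of the Sin3 complex, changed by 0.13 ± 0.07 (adjusted p = 0.136, or 0.0471 with the fixed block) and by 0.18 ± 0.07 (adjusted p = 0.0388, but 0.0594 with no filter). The wild-type call of Fhl3 held in 6 of 10 fits that left out an array, and the knockout call of Hdac1 in 3 of 10.

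The 6 genes of the turnover list encode ubiquitin ligases reported to act on Kruppel-like factors, and all were tested. In wild-type cells 1 rose and 1 fell, or 3 and 1 with the fixed block, and in knockout cells 3 rose and 2 fell in both fits. Of all tested genes 16.1% rose and 26.7% fell in wild-type cells, or 20.8% and 37% with the block. In knockout cells 18.9% and 33.2% did, or 23.5% and 42%. Fbxo32, an F-box protein of wasting muscle, fell the most of the 6 genes. It went from 6.24 ± 0.36 to 4.38 ± 0.20 (SD, n = 5) in wild-type cells and from 6.57 ± 0.35 to 4.28 ± 0.45 in knockout cells. The changes were -1.86 ± 0.20 (SE) and -2.30 ± 0.20. Fbxw7, which targets Klf2 and Klf5 in other cells, changed by 0.25 ± 0.14 (adjusted p = 0.154, or 0.0263 with the fixed block) and rose by 0.59 ± 0.14. Wwp1, which ubiquitinates Klf2 and Klf5, changed by -0.13 ± 0.09 (adjusted p = 0.262) and by -0.34 ± 0.09 (adjusted p = 0.00443). Vhl changed by 0.20 ± 0.14 (adjusted p = 0.249, or 0.0347 with the fixed and 0.0712 with the random block) and by 0.35 ± 0.14 (adjusted p = 0.038). The last call was lost in 4 of 10 fits that left out an array, with an adjusted p of up to 0.115.

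Most genes of the ERK5, MEF2 and FOXO list, known to control Klf2 and Klf4 in endothelium and lymphocytes, fell too. All 8 were tested, and 6 fell and 0 rose in each genotype, with medians of -0.50 and -0.55. The counts were the same with the fixed block, although the share of all tested genes that fell went from 26.7% to 37% in wild-type and from 33.2% to 42% in knockout cells. Mef2c fell from 6.36 ± 0.28 to 5.37 ± 0.35 in wild-type cells, and its changes were -0.99 ± 0.20 there and -1.05 ± 0.20 in knockout cells. Foxo3 changed by -0.62 ± 0.11 and -0.83 ± 0.11, Foxo1 by -0.54 ± 0.12 and -0.56 ± 0.12, and Map3k3, a kinase upstream of ERK5, by -0.54 ± 0.13 and -0.73 ± 0.13, all 3 called in each genotype. The ERK5 gene itself, Mapk7, did not fall. Its mean went from 5.95 to 6.01 in wild-type cells and from 5.90 to 5.99 in knockout cells. Mef2d was not called either, with means of 6.09 and 6.05 in wild-type cells and 6.12 and 6.19 in knockout cells. These are messenger RNA levels, and the activity of the proteins was not measured.

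In the TGF-beta list, taken because Klf10 is a TGF-beta early gene, 2 of 9 rose and 1 fell in wild-type cells, or 3 and 3 with the fixed block. In knockout cells 2 rose and 2 fell, or 4 and 3 with the block. Of all tested genes 16.1% rose and 26.7% fell in wild-type cells, or 20.8% and 37% with the block. In knockout cells 18.9% and 33.2% did, or 23.5% and 42%. The feedback inhibitor Skil rose by 1.10 ± 0.16 and 1.51 ± 0.16, and the ligand Tgfb1 by 0.44 ± 0.12 and 0.83 ± 0.12. Smad4, the shared signal transducer, fell, with changes of -0.49 ± 0.11 and -0.48 ± 0.11. Ski, a corepressor of the pathway, changed by -0.43 ± 0.18 (adjusted p = 0.06, or 3.48e-05 with the fixed block) and by -0.46 ± 0.18 (adjusted p = 0.0365, but 0.0511 after quantile normalization, and called in 5 of 10 fits that left out an array).

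Genes reported as targets of single members in other cells went in both directions. Of 11, 10 were tested. In wild-type cells 2 rose and 3 fell, or 3 and 3 with the fixed block, and in knockout cells 2 rose and 5 fell, or 3 and 5. In wild-type cells 16.1% of all tested genes rose and 26.7% fell, or 20.8% and 37% with the block, and in knockout cells 18.9% and 33.2%, or 23.5% and 42%. S1pr1, the egress receptor that Klf2 activates in T cells, fell from 6.31 ± 0.45 to 4.87 ± 0.18 in wild-type cells, a change of -1.44 ± 0.18, and had a change of -1.86 ± 0.18 in knockout cells. Thbd, the anticoagulant thrombomodulin and an endothelial Klf2 target, fell, with changes of -1.58 ± 0.13 and -1.53 ± 0.13. Cdkn1a, a cell cycle inhibitor that Klf4 and Klf6 activate in other cells, rose by 1.03 ± 0.15 and 1.47 ± 0.15. The Klf13 target Ccl5 rose by 2.24 ± 0.25, from 5.17 ± 0.33 to 7.41 ± 0.38, and by 2.41 ± 0.25, while Klf13 fell.

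Between genotypes, no gene of these lists was called in untreated cells. After IL-33, 3 were: Tgfb1 was 0.51 ± 0.12 higher in knockout cells (adjusted p = 0.0332), Fbxw7 0.59 ± 0.14 higher (adjusted p = 0.0373) and Wwp1 differed by -0.38 ± 0.09 (adjusted p = 0.0418). Each of the 3 was called in 2 of 10 fits that left out an array, those without wild-type mouse 2 or knockout mouse 1. With only the groups compared in the fit their adjusted p was 0.0941, 0.109 and 0.116, in that order. Klf1 differed by -0.50 ± 0.15 (adjusted p = 0.0674), and was called with the random block (adjusted p = 0.0422), with which 4.37% of all tested genes were. It was also called without wild-type mouse 2 (-0.59, adjusted p = 0.0179) and without knockout mouse 1 (-0.54, adjusted p = 0.0418). Skil was called without either of these arrays in turn (adjusted p = 0.0325 and 0.0249), and Sp1 without wild-type mouse 2 (adjusted p = 0.0464). Of all tested genes 260 were called with all arrays, 1659 without wild-type mouse 2 and 1049 without knockout mouse 1.

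**Figure D5:**
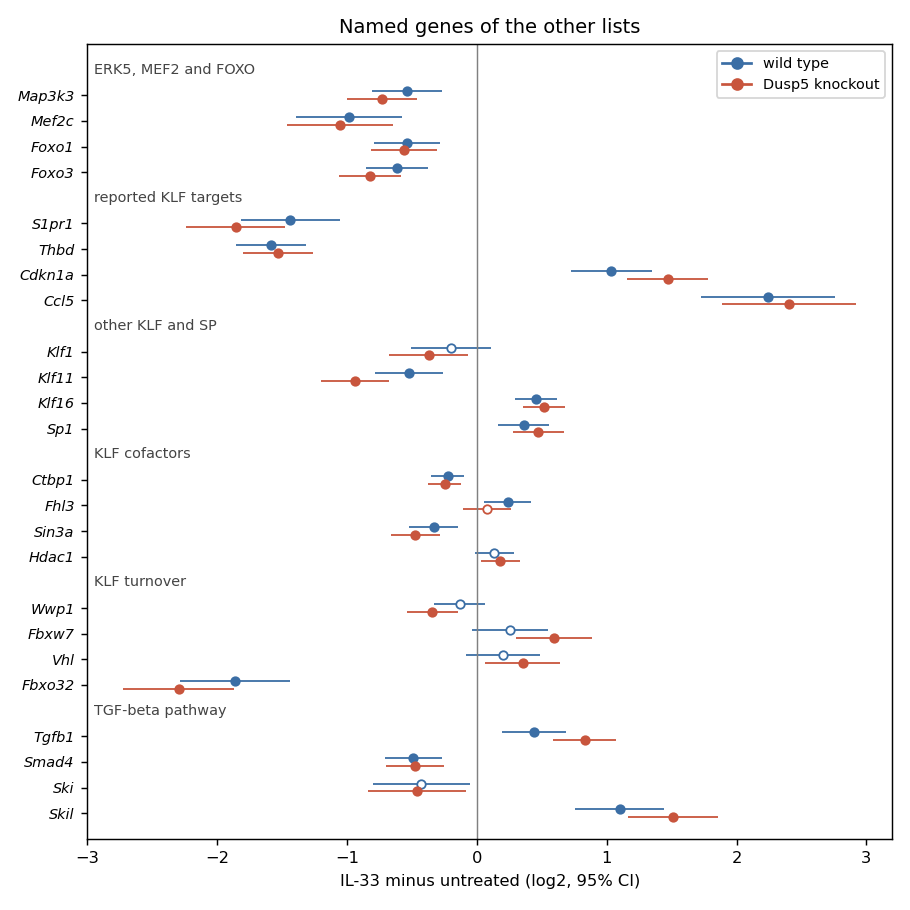
Change with IL-33 (IL-33 minus untreated, log2, with 95% intervals of the limma fit from 5 arrays a group) of the named genes of the 6 other lists, by genotype; filled points were called at an adjusted p under 0.05 and open points were not. Mef2c, Foxo3, Map3k3 and Foxo1, the 4 genes shown from the ERK5, MEF2 and FOXO list, lie below 0. The targets S1pr1 and Thbd lie opposite to Cdkn1a and Ccl5.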

How the data were processed

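Total RNA of 20 samples was labelled with biotin and hybridised to 1-colour Affymetrix arrays, per the labels' protocols. The authors deposited log2 values for 20630 probe sets, and the scale was read from the values, which ran from 1.27 to 13.99. How these values were corrected, summarized and normalized was not given in the sources used here. Differences between groups depend on those steps. Gene names came from the platform annotation: 17826 probe sets had 1 symbol, 91 several and 2711 none, leaving out 2 controls. The probe set with the highest mean stood for a gene. A gene was tested when it exceeded the array's 40th percentile (3.56 to 3.68) on at least 5 arrays.

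Samples were grouped by the labels for genotype and treatment. With limma 3.58.1 in R 4.3.3, a model of 4 group means (lmFit, then eBayes, with 16 degrees of freedom left) was fitted to all genes and arrays and tested on simulated data. Benjamini-Hochberg adjustment ran over the 11766 tested genes, and called means an adjusted p under 0.05. Within a genotype, arrays that share a replicate number deviated together (r of 0.262 to 0.783, each of 10 best with its own number), and the series text names 5 mice per genotype, so the replicate number stands for the mouse. Alternatives were no dim filter or one at the 60th percentile, quantile normalization, only the groups compared, eBayes with trend and robust, fixed and random replicate blocks, a second probe set and leaving out each array.

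The named genes were the 9 members, up to 4 called genes of each other list with the largest change, the 3 genes most like each called member, and Dusp5. Markers, Mapk7 and Mef2d lie outside that rule and were named after their values were seen, as was the narrower MEF2 pattern chosen. The members and lists were chosen with earlier results of these data known.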

Additional observations from a re-analysis of the deposited data

Results flagged for a closer look

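One array stood apart from its group by Dixon's criterion. For Klf5 in IL-33-treated knockout cells, mouse 4 read 6.45 while the next array read 5.94. The gap was 0.847 of the group's range, above the critical value of 0.71 for 5 arrays. It was 1 of 40 groups tested, and chance alone flags about 1 group in 20. Its Klf5 level without IL-33 was 5.99, the highest of the untreated knockout arrays as well.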

How the results depend on the processing

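Under the alternatives run, no result turned its direction past the threshold. The 5 falling genes were called in each genotype under all of them; the members that fell numbered 5 to 6 in wild-type and 5 to 5 in knockout cells when an array was left out. The members higher in the knockout after IL-33 numbered 0 to 2. Genes called between genotypes after IL-33 were 260, but 152 with no dim filter, 444 at the 60th percentile, 24 with only the groups compared, 514 with the random replicate block, and 33 to 1659 when an array was left out (1659 without wild-type mouse 2, 1049 without knockout mouse 1). Between untreated genotypes 3 to 15 genes were called (15 without wild-type mouse 2). The random replicate block gave 26 genes for the difference in response, and leaving out an array gave 0 to 3. The per-mouse exact test gave an unadjusted p under 0.05 for 0 members, for 1 after quantile normalization and for 0 to 1 when a mouse was left out. Besides the calls of Klf3, of list genes and of markers given with a block above, the random block changed that of the Dusp5 difference in response (-1.07, adjusted p = 0.415, or 0.0222 with the random and 0.109 with the fixed block). The causes were not tested. With 5 arrays a group, the SE of a difference between genotypes was 0.11 to 0.17 for the members, which limits what could be called. The alternatives for the other lists were added after seeing the data.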
